A study of Mus musculus with 8 samples.

Results

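Glycolysis, glucose uptake and the fate of pyruvate are described here through 40 genes, picked by gene symbol from the 47729 genes of the expression table. Tumors of 4 groups were sequenced: B16-F0, a melanoma line, and LLC, the Lewis lung carcinoma line, grafted under the skin of the back of syngeneic C57BL/6 mice (C57BL/6J in the study's methods) that were either WT or *Ccrl2* KO. Only the host lacked *Ccrl2*, a receptor that binds chemerin without signaling, while the grafted cells were unmodified in all groups, so that WT and KO name the host throughout. There were 2 libraries per group, made from pools of several tumors. The labels and the Results of the paper give day 5 after the graft for both tumors. The legends of the paper give an earlier day for B16. The study's methods give 6 to 12 weeks as the general age of its mice, and nothing in the labels pairs the pools. A tumor pool holds grafted cells, host vessels, stroma and leukocytes together, so that fewer cells of a type and less RNA per cell cannot be told apart.

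Glycolysis converts glucose to pyruvate in the cytosol. Glucose enters through transporters of the SLC2A (GLUT) family, is trapped by hexokinases, passes the committed step of phosphofructokinase, and is split by aldolase into trioses that GAPDH, phosphoglycerate kinase, phosphoglycerate mutase, enolase and pyruvate kinase carry to pyruvate. Lactate dehydrogenase then makes lactate, which leaves the cell with the monocarboxylate transporters, or the pyruvate dehydrogenase complex feeds pyruvate into the tricarboxylic acid cycle unless a kinase (PDK) phosphorylates and inhibits it. Many tumors keep glycolysis high, and hypoxia-inducible factor 1 (HIF-1) is a known activator of most of these genes under low oxygen.

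The levels are reads per 1 M reads on genes (RPM), obtained from the deposited counts, which were scaled to 20 M per library. The estimated depth was 17.59 to 30.84 M reads on genes per library, and 3 reads correspond to 0.0973 to 0.171 RPM, as counting error only. In LLC the depth was 30.84 and 28.47 M in the WT pools and 20.05 and 17.59 M in the KO pools. The deposited values were rounded up only in LLC WT. Rounding acts on single units of the deposited values, of which 20 make 1 RPM. Depth and rounding both went with the host in LLC and cannot be told apart from it by design. Their part in the size of the LLC differences was not tested. Melanocyte markers summed to 14625.25 to 17948.55 RPM in the B16 pools and to 24.55 to 27.55 RPM in the LLC pools, and simple epithelial markers to 1.55 to 2.1 RPM in B16 and 278 to 471.95 RPM in LLC, as the tumor labels say. The 4 Y-linked genes examined were at 0 in 6 libraries and at 65.85 and 71.5 RPM, as a sum, in the LLC KO pools, so that a difference in sex or cell stock and the effect of the LLC host cannot be told apart. Of the 40 genes, 37 had at least 1 RPM in at least 2 libraries and were tested with limma, in 1 model of the 4 groups over 14706 genes. The threshold for a call was an adjusted p of 0.05 (Benjamini-Hochberg), and the calls below come from this model unless another test is named. The p-values measure the spread between pools, with 2 pools a group.

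Promoter sequences are shown first, because many of the genes are known targets of HIF-1, whose binding core reads ACGTG or GCGTG on either strand. RefSeq promoter windows (GRCm38.p6, 250 bases before to 50 after the start) were at hand for 38 of the 40 genes, and not for *Slc2a3* and *Slc2a4*. In the 6 windows below the matches are in capitals, and overlapping matches run together.
Slc2a1, chr4:119108495-119108794, plus strand: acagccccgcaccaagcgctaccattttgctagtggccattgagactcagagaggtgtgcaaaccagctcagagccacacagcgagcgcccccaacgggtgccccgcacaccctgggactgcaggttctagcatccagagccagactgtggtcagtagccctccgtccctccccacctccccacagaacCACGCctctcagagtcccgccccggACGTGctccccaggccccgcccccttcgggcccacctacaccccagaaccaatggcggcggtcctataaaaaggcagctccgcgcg
Pdk1, chr2:71872974-71873273, plus strand: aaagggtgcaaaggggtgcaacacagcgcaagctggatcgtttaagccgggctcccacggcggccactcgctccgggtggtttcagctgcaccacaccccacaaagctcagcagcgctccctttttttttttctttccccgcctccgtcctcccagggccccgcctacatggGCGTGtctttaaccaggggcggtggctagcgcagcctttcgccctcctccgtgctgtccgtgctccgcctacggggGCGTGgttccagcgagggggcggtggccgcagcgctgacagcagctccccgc
Pgk1, chrX:106186850-106187149, plus strand: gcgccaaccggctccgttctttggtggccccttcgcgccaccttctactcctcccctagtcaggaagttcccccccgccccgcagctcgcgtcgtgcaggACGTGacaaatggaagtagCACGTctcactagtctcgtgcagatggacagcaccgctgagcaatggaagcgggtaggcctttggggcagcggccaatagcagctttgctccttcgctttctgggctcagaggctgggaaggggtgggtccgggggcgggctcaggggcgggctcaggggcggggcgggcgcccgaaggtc
Ldha, chr7:46845554-46845853, plus strand: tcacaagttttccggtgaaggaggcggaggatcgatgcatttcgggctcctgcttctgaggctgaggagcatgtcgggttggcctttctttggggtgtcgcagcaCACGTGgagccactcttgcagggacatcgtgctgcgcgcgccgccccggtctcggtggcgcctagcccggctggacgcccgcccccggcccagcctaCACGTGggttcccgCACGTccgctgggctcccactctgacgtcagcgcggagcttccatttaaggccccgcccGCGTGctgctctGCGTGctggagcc
Gpi1, chr7:34230287-34230586, minus strand: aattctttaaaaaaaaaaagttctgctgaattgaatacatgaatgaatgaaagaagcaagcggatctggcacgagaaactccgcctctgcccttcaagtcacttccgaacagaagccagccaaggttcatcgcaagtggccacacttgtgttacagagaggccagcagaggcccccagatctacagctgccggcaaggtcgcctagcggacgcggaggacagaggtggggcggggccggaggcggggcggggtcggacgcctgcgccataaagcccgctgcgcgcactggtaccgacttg
Pdhb, chr14:8172943-8173242, minus strand: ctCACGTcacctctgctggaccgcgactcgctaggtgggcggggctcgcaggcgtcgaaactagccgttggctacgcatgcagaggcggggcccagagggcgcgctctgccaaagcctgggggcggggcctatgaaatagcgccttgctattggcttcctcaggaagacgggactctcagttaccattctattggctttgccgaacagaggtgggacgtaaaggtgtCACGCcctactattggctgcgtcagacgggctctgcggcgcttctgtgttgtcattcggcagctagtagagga
The first 4 genes were among those higher in LLC tumors of KO hosts, and they hold 2, 2, 2 and 5 stretches of capitals. *Gpi1* was higher as well and has no match in this window, while *Pdhb* was lower and has 2. At least 1 window held a match in 14 of the 17 genes that were higher in LLC (82.4%), in 4 of the 5 that were lower (80%) and in 12 of the 14 tested genes with a window that were not called (85.7%). Of all 27025 genes with a window, 46.7% held one, and of all 32851 windows 43.8%, against 71.9% of the 57 windows of the 38 genes. In these totals 1 chromosome that holds none of the 40 genes was left out. Both cores contain the letters CG, and promoters of like CG content were not compared. A match is a description of letters, and no match says only that these letters are not in the window.

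The genes of the pathway took a large and unequal part of the libraries. Summed over the 40 genes, the level was 40485.05 and 39451.8 RPM in B16 WT, 49454.65 and 49676.65 RPM in B16 KO, 13622.2 and 13554.2 RPM in LLC WT, and 21737.4 and 21694.9 RPM in LLC KO. The KO pools were above the WT pools in both tumors, by 1.24-fold in B16 and 1.60-fold in LLC, and each B16 pool was above each LLC pool. The sum is a description without a test, and it follows the few genes with the most reads, not corrected for length: 11 of them (*Gapdh*, *Pkm*, *Ldha*, *Eno1*, *Tpi1*, *Aldoa*, *Pgk1*, *Gpi1*, *Pfkl*, *Pgam1* and *Slc2a1*) made up 88.5% to 93.1% of it. *Gapdh* alone gave 25.4% of the summed difference between KO and WT in LLC and 32.3% of that in B16.

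**Figure D1:**
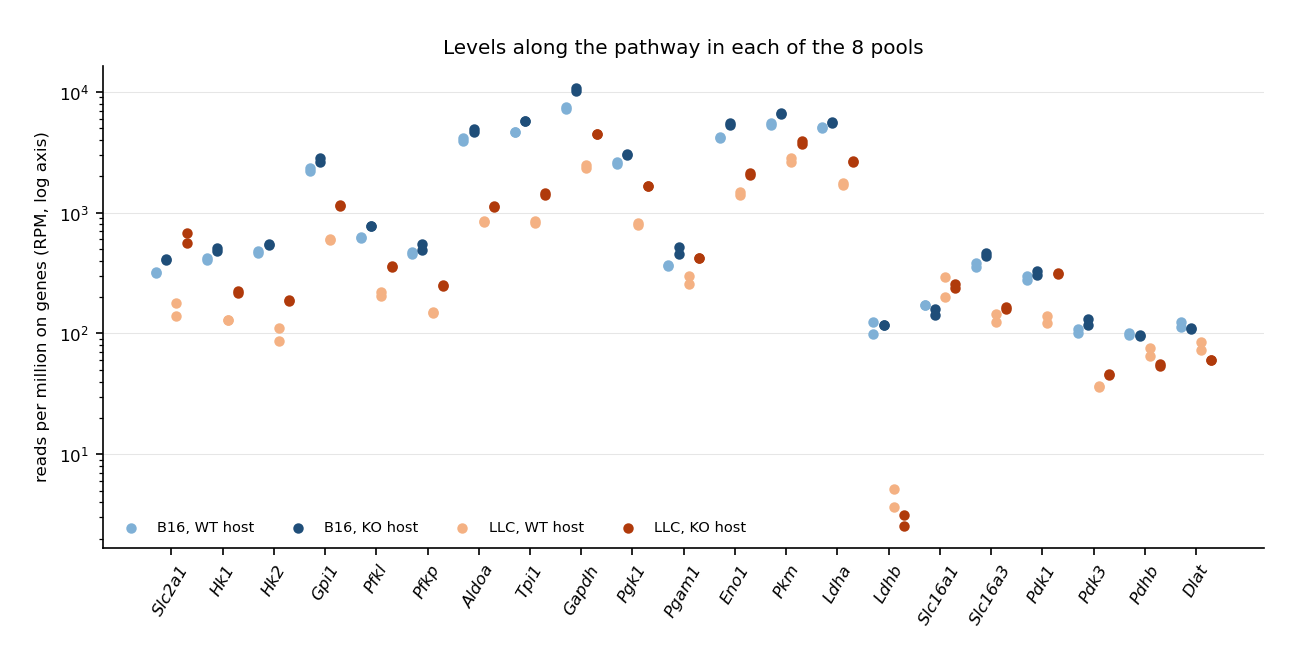
Levels of 21 genes in pathway order, in RPM on a log axis, with 1 point for each of the 2 pools of a group. B16 pools lie above LLC pools at most steps, KO pools lie above WT pools of the same tumor from *Hk1* to *Ldha*, and *Ldhb* is at 2.55 to 5.2 RPM in the LLC pools against 98.7 to 124.95 RPM in B16.

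In LLC tumors, the host effect ran through nearly the whole chain from glucose uptake to lactate. Of the 37 tested genes, 17 were higher in KO than in WT hosts, where 15.1% of all tested genes were called in that direction, and 5 were lower, where 23.1% were. The median log2 fold change of the 37 genes was 0.31, against −0.09 over all genes. The KO pools did not overlap with the WT pools in 20 genes above (27.6% of all genes) and 12 below (42%). Scaling by TMM gave 19 higher and 4 lower, while among all called genes the share that was higher moved from 39.6% to 54.8%. The count of 5 lower genes was 1 without LLC KO replicate 1 or replicate 2, 8 without LLC WT replicate 1, and 2 with LLC fitted alone. Without B16 WT replicate 1 and LLC KO replicate 1 together, 6 were higher and 0 lower.

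**Figure D2:**
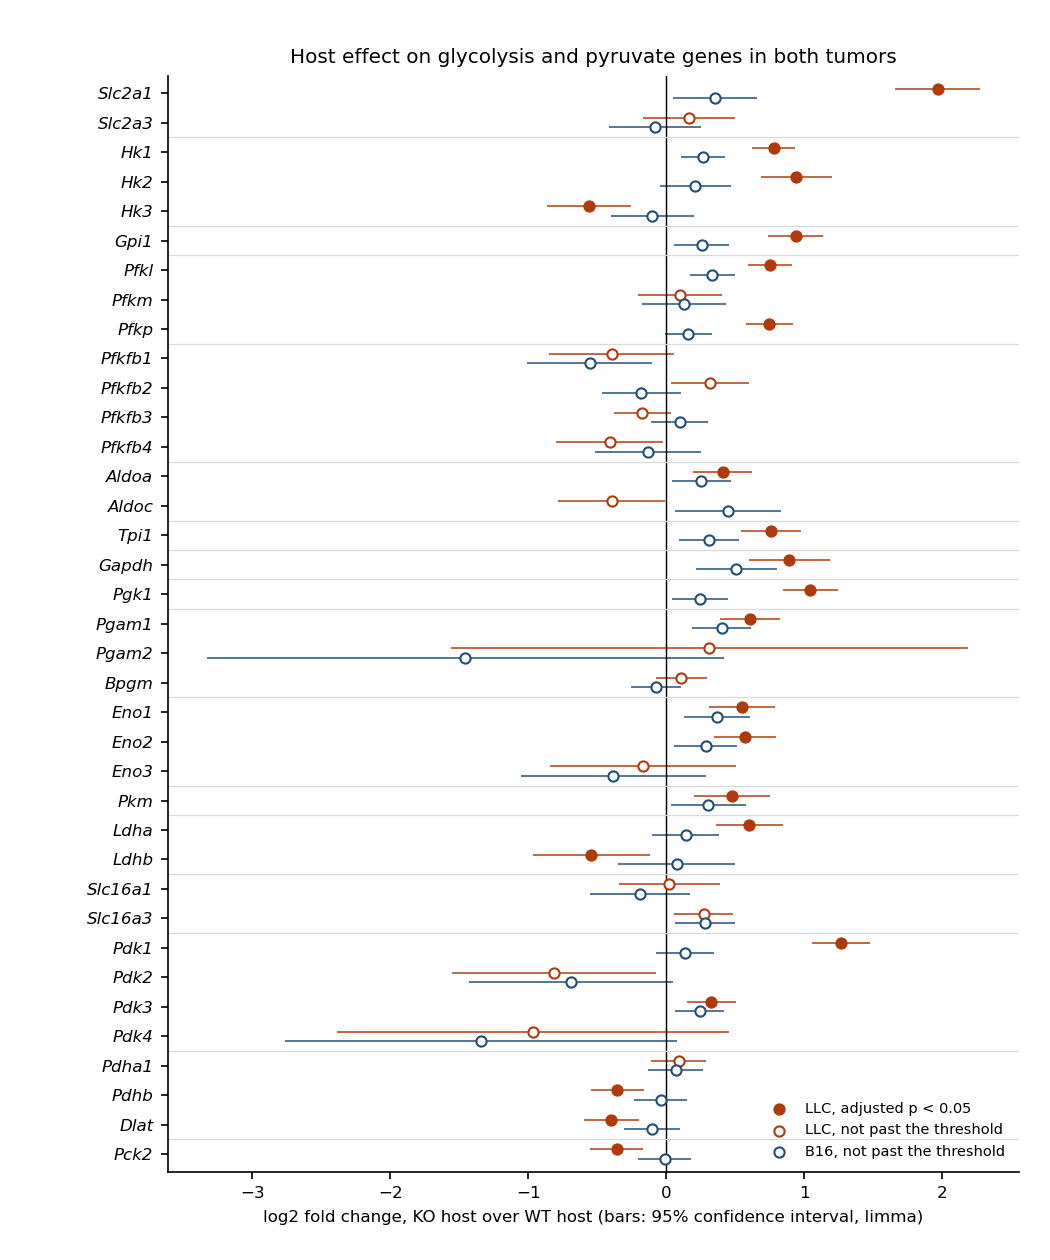
Log2 fold change of KO over WT hosts for the 37 tested genes in pathway order, in LLC (red) and B16 (blue), with 95% confidence intervals from limma. Filled points passed an adjusted p of 0.05, which 22 genes did in LLC and 0 in B16. The largest change is that of *Slc2a1* in LLC, at 1.96.

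The largest change was at the entry of glucose. *Slc2a1*, which encodes the widely expressed transporter GLUT1, was at 179.55 and 138.55 RPM in the LLC WT pools and at 562.5 and 677.2 RPM in the LLC KO pools. Both KO pools were far above both WT pools, and the fold change was 3.90 (log2 1.96, standard error 0.13, adjusted p = 0.000238). *Slc2a3*, for the high-affinity transporter GLUT3, was at 13.45 and 11.35 RPM in WT and 15.8 and 12.2 RPM in KO hosts, with overlapping pools (log2 0.16, standard error 0.14, adjusted p = 0.396). *Slc2a4*, for the insulin-responsive GLUT4 of muscle and fat, was at 0.35 to 0.65 RPM in LLC and was not tested. Per kb of exon, *Slc2a1* made up 96.1% of the reads of the 3 transporters in LLC WT and 98.8% in LLC KO, as means of 2 pools.

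The hexokinases split. *Hk2*, the inducible isozyme of muscle, fat and many tumors, was at 110.9 and 86.05 RPM in LLC WT and at 187.3 and 188.75 RPM in LLC KO, a 1.92-fold increase (log2 0.94, standard error 0.11, adjusted p = 0.00151). *Hk1*, the widely expressed isozyme, went from 129.25 and 128 RPM to 215.45 and 225.95 RPM (log2 0.78, standard error 0.07, adjusted p = 0.000561). *Hk3*, an isozyme of myeloid cells, was lower, from 56.5 and 51 RPM to 35 and 37.45 RPM (log2 −0.56, standard error 0.13, adjusted p = 0.0138). The *Hk3* call was lost without LLC KO replicate 1 (log2 −0.51, adjusted p = 0.0793). The share of *Hk3* in the reads of the 3 isozymes per kb of exon was 31.6% in LLC WT and 14.6% in LLC KO, and 4.02% and 3.21% in B16. The 9 macrophage markers summed to 2842 and 3512 RPM in LLC WT and to 2746.2 and 3465.25 RPM in LLC KO, with none at 0, and the 6 neutrophil markers to 196.7 and 122.75 RPM and to 175.8 and 161.15 RPM, with none at 0. The sums overlapped between the hosts in LLC, while single markers were called: *Mmp8* (log2 −2.96, adjusted p = 0.000457), *Csf3r* (−0.45, 0.0492) and *Csf1r* (−0.93, 0.0212) were lower and *Mrc1* (0.65, 0.0182) was higher. Their part in the *Hk3* difference between hosts was not tested.

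The following steps to fructose bisphosphate also rose. *Gpi1*, glucose-6-phosphate isomerase, went from 594.75 and 603.55 RPM to 1133.45 and 1164.05 RPM, which is 1.92-fold (log2 0.94, standard error 0.09, adjusted p = 0.000664). The liver-type *Pfkl* and the platelet-type *Pfkp* subunits of phosphofructokinase rose alike, by log2 0.75 and 0.74 (standard error 0.07 for each, adjusted p = 0.000685 and 0.000905). *Pfkl* was at 203.7 and 220.1 RPM in WT and 351.7 and 362 RPM in KO hosts, and *Pfkp* at 150.3 and 148 RPM and at 252.5 and 247.9 RPM. The muscle-type *Pfkm* was at 42.35 and 45.3 RPM in WT and 50.35 and 43.75 RPM in KO hosts (log2 0.10, standard error 0.13, adjusted p = 0.580). The ratio of *Pfkl* to *Pfkp* was thus nearly the same in both hosts in LLC, with log2 means of 0.50 in WT and 0.51 in KO. In B16 the means were 0.42 in WT and 0.59 in KO hosts, and both KO pools were above both WT pools.

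None of the 4 PFKFB genes was called in LLC. They encode the bifunctional enzymes that make and degrade fructose 2,6-bisphosphate, the strongest activator of phosphofructokinase. *Pfkfb3*, whose enzyme favors synthesis, was at 72.5 and 72.85 RPM in WT and 64.85 and 63.85 RPM in KO hosts (log2 −0.17, standard error 0.09, adjusted p = 0.156). *Pfkfb4* was at 24.25 and 32.5 RPM and at 19.05 and 23.1 RPM (log2 −0.41, standard error 0.17, adjusted p = 0.0853). *Pfkfb1* differed by log2 −0.40 (standard error 0.19, adjusted p = 0.142), and *Pfkfb2*, at 6.5 to 8.5 RPM, by log2 0.32 (standard error 0.12, adjusted p = 0.0768). *Pfkfb3* and *Pfkfb4* are known hypoxia-inducible genes. In each, the KO pools did not reach the WT levels, and the difference was not called. The part of hypoxia in these levels was not tested.

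Each of the triose steps had a called increase. *Pgk1*, phosphoglycerate kinase, which makes the first ATP of the pathway, went from 824.25 and 789.2 RPM to 1672 and 1653.85 RPM, a 2.06-fold increase (log2 1.04, standard error 0.09, adjusted p = 0.000458). *Gapdh*, glyceraldehyde-3-phosphate dehydrogenase, went from 2340.05 and 2491.5 RPM to 4438.15 and 4516.7 RPM (1.85-fold, log2 0.89, standard error 0.13, adjusted p = 0.00263). *Tpi1*, triose phosphate isomerase, went from 822.1 and 858.35 RPM to 1445.75 and 1398.6 RPM (log2 0.76, standard error 0.09, adjusted p = 0.00172). *Aldoa*, the main aldolase outside liver and brain, changed less, from 834.15 and 855 RPM to 1130.45 and 1109.35 RPM (log2 0.41, standard error 0.09, adjusted p = 0.013). *Aldoc*, the brain isozyme, was at 1.95 and 2.85 RPM in WT and 1.7 and 1.65 RPM in KO hosts (log2 −0.40, standard error 0.17, adjusted p = 0.0928).

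Mutase, enolase and pyruvate kinase rose as well. *Pgam1*, the common phosphoglycerate mutase, went from 259.05 and 296.5 RPM to 423.4 and 421.25 RPM (log2 0.61, standard error 0.09, adjusted p = 0.00332). *Eno1*, the common enolase, went from 1402.2 and 1472.55 RPM to 2142.75 and 2055.5 RPM (log2 0.55, standard error 0.10, adjusted p = 0.00661). *Eno2*, the neuronal enolase, rose by a similar amount, from 14.25 and 13.45 RPM to 21.1 and 20.5 RPM (log2 0.57, standard error 0.10, adjusted p = 0.00478). *Pkm*, pyruvate kinase of muscle and most tumors, went from 2837.35 and 2640 RPM to 3893.85 and 3715.4 RPM (log2 0.47, standard error 0.12, adjusted p = 0.0174), and the table does not separate its M1 and M2 isoforms. *Bpgm*, bisphosphoglycerate mutase of red cells, was at 20.65 to 23.1 RPM in LLC (log2 0.11, standard error 0.08, adjusted p = 0.314). The muscle forms *Pgam2* (1.2 to 2.3 RPM) and *Eno3* (18.55 to 22.9 RPM) had log2 fold changes of 0.31 (standard error 0.81) and −0.17 (standard error 0.29).

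The calls of *Aldoa*, *Eno1* and *Pkm* depended on LLC KO pools. Without LLC KO replicate 1 the adjusted p was 0.0953 for *Aldoa*, 0.0598 for *Eno1* and 0.119 for *Pkm*, and without LLC KO replicate 2 it was 0.0736 for *Aldoa* and 0.0788 for *Pkm*. Their fold changes stayed close, at log2 0.39 and 0.42 for *Aldoa*, 0.52 for *Eno1*, and 0.44 and 0.51 for *Pkm*. The *Pkm* call was lost under 3 single alternatives in all. Of the 22 calls in LLC, 13 held under every alternative except the one that left out B16 WT replicate 1 and LLC KO replicate 1 together, and 6 (*Slc2a1*, *Pdk1*, *Pgk1*, *Gpi1*, *Hk1* and *Pfkl*) held under that one as well. *Eno1* and *Aldoa* share sequence with the near-copies *Eno1b* (0.15 to 0.95 RPM in LLC) and *Aldoart1* (0.6 to 1.4 RPM in LLC), and how reads that fit several places were counted is not given in the sources used here. Exons of 14 members overlap exons of another gene. A single other gene shared at most 17.4% of a member's exon bases (*Pfkfb2*), and over all other genes 0 members shared more than 20%.

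Around pyruvate, genes moved in both directions. *Ldha*, whose subunit favors lactate production, went from 1761.6 and 1704.8 RPM to 2604.25 and 2656.5 RPM (1.52-fold, log2 0.60, standard error 0.10, adjusted p = 0.00501). *Ldhb*, the heart subunit, was at 3.65 and 5.2 RPM in LLC WT and at 2.55 and 3.15 RPM in LLC KO (log2 −0.54, standard error 0.18, adjusted p = 0.0483). This call was lost under 13 single alternatives, among them a pseudocount of 2 RPM (adjusted p = 0.0755), TMM scaling (0.0978) and leaving out LLC WT replicate 2 (log2 −0.31, adjusted p = 0.190), so it stands at the limit. *Slc16a3*, for the lactate exporter MCT4, was at 123.2 and 144.6 RPM in WT and 157.85 and 164.15 RPM in KO hosts and just missed the threshold (log2 0.27, standard error 0.09, adjusted p = 0.0527). *Slc16a1*, for MCT1, was at 201.3 to 292.25 RPM with overlapping pools (log2 0.02, standard error 0.16, adjusted p = 0.925).

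Of the kinases that shut the pyruvate dehydrogenase complex, *Pdk1* stood out. *Pdk1*, a known HIF-1 target, went from 121.6 and 140.05 RPM in LLC WT to 308.7 and 319.3 RPM in LLC KO, a 2.40-fold increase (log2 1.26, standard error 0.09, adjusted p = 0.000294). *Pdk3*, also induced by hypoxia in other settings, rose from 36.65 and 36.15 RPM to 46 and 45.55 RPM (log2 0.33, standard error 0.08, adjusted p = 0.0147). *Pdk2*, the widely expressed form, was at 7.85 and 13.75 RPM in WT and 5.75 and 5.65 RPM in KO hosts (log2 −0.82, standard error 0.32, adjusted p = 0.0774), and *Pdk4*, the starvation-induced form, was at 2.5 and 3.6 RPM and at 1 and 1.65 RPM (log2 −0.97, standard error 0.61, adjusted p = 0.242). Per kb of exon, *Pdk1* made up 47.6% of the reads of the 4 kinases in LLC WT and 66.8% in LLC KO. In B16 this share was 46.2% and 45.3%. The *Pdk3* call was lost under 3 single alternatives, among them leaving out LLC KO replicate 1 or replicate 2.

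Subunits of the complex that these kinases inhibit were lower. *Dlat*, the E2 subunit, went from 84.85 and 73.6 RPM to 59.8 and 59.9 RPM (log2 −0.40, standard error 0.09, adjusted p = 0.0112). *Pdhb*, the E1 beta subunit, went from 75.45 and 65.6 RPM to 53.7 and 56.15 RPM (log2 −0.35, standard error 0.08, adjusted p = 0.014). *Pdha1*, the E1 alpha subunit that carries the phosphorylation sites, was at 79.05 and 88.85 RPM in WT and 90.95 and 87.6 RPM in KO hosts, with overlapping pools (log2 0.09, standard error 0.09, adjusted p = 0.432). *Pck2*, the mitochondrial phosphoenolpyruvate carboxykinase, which leads away from pyruvate, was lower, from 64.45 and 64 RPM to 52.95 and 47 RPM (log2 −0.36, standard error 0.08, adjusted p = 0.0132). These calls were lost without LLC KO replicate 2, with adjusted p of 0.0547 for *Dlat*, 0.0507 for *Pdhb* and 0.0902 for *Pck2*, and those of *Dlat* and *Pdhb* also without LLC KO replicate 1 (0.0614 and 0.0876). With LLC fitted alone, the calls of *Pdhb* and *Pck2* were lost as well. *Fbp1* and *Fbp2*, the fructose bisphosphatases of gluconeogenesis, were at 0 to 0.1 RPM and 0 to 0.25 RPM in LLC and were not tested.

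In B16 tumors the same comparison gave 0 called genes, among the 37 and among all 14706, where the smallest adjusted p was 0.202. At an unadjusted p under 0.05, 15 of the 37 genes were higher (2.96% of all genes) and 1 was lower (6.85%), and 1442 of all genes passed that limit. The KO pools lay above both WT pools in 19 genes, where 16.1% of all genes did, and below in 8, where 31.1% did. The median log2 fold change of the 37 genes was 0.14, against −0.05 over all genes.

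*Gapdh* had the largest B16 difference upward, at 7544.7 and 7167.5 RPM in WT and 10132.9 and 10786 RPM in KO hosts (1.42-fold, log2 0.51, standard error 0.13, adjusted p = 0.393). *Aldoc* was at 84.05 and 78.15 RPM in WT and 101.75 and 120.15 RPM in KO hosts (log2 0.45, standard error 0.17, adjusted p = 0.478). *Pgam1* was at 370.65 and 365.05 RPM and at 453.55 and 519.8 RPM (log2 0.40, standard error 0.09, adjusted p = 0.382). In these genes, and in *Eno1*, *Slc2a1*, *Pfkl*, *Tpi1* and *Pkm* (log2 0.37, 0.35, 0.33, 0.31 and 0.30), both KO pools were above both WT pools, and none passed the adjusted threshold. *Slc2a1* had 323.05 and 316.65 RPM in WT hosts and 411.75 and 405.65 RPM in KO hosts. *Pdk1* (log2 0.14, 95% confidence interval −0.07 to 0.35) and *Ldha* (0.14, −0.10 to 0.38) were closer to 0.

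With both tumors averaged, KO hosts had 18 of the 37 genes higher (8.12% of all genes) and 5 were lower (14.9%). The 18 were the 17 called in LLC and *Slc16a3* (log2 0.27, standard error 0.07, adjusted p = 0.0256). The 5 lower genes were *Hk3*, *Pfkfb1*, *Pdk2*, *Pdhb* and *Dlat*, with adjusted p between 0.0271 and 0.048, and 0 of them were called with TMM scaling, median-of-ratios scaling or no filter on low values. Leaving out B16 WT replicate 1, B16 KO replicate 1, B16 KO replicate 2 or LLC KO replicate 2 also left 0, and leaving out LLC KO replicate 1 left 1. It was 2 without B16 WT replicate 2 and 3 without LLC WT replicate 1. Without B16 WT replicate 1 and LLC KO replicate 1 together, 0 of the 37 genes were called in either direction.

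The difference between the host effects of the 2 tumors was tested directly. It was larger in LLC for 8 genes (8.15% of all genes): *Slc2a1* (log2 difference 1.61, standard error 0.19, adjusted p = 0.00474), *Pdk1* (1.13, 0.13, 0.00443), *Pgk1* (0.80, 0.12, 0.0115), *Hk2* (0.73, 0.16, 0.0256), *Gpi1* (0.68, 0.12, 0.0158), *Pfkp* (0.58, 0.10, 0.0156), *Hk1* (0.51, 0.10, 0.018) and *Pfkl* (0.42, 0.10, 0.0321). Differences that were not called reached a similar size for *Ldha* (0.46, 0.15, 0.0714), *Tpi1* (0.45, 0.13, 0.0581) and *Gapdh* (0.38, 0.18, 0.177). They were smaller for *Pgam1* (0.21, standard error 0.13), *Eno1* (0.18, 0.15), *Pkm* (0.17, 0.17) and *Aldoa* (0.15, 0.13). *Aldoc* was called in the other direction (log2 difference −0.84, standard error 0.23, adjusted p = 0.0497), where 7.05% of all genes were. The count of 8 fell to 2 without B16 WT replicate 1, without B16 KO replicate 1 or without LLC KO replicate 1, and to 3 without B16 WT replicate 2 or LLC KO replicate 2. *Slc2a1* and *Pdk1* kept their call with each single library left out. The *Aldoc* call was lost with TMM scaling (adjusted p = 0.0585) and without any single library other than LLC WT replicate 1 (0.057 to 0.165).

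Neighboring pathways gave other counts in LLC, to be read against the 15.1% of all tested genes called higher and the 23.1% called lower. Of 20 tested tricarboxylic acid cycle genes, 0 were higher and 11 lower (median log2 fold change −0.26, against −0.09 for all genes). *Ogdh*, of the oxoglutarate dehydrogenase complex, was at 189.05 and 202.15 RPM in LLC WT and 117.15 and 116.4 RPM in LLC KO (log2 −0.74, standard error 0.10, adjusted p = 0.00241). *Suclg1* (log2 −0.46, adjusted p = 0.00347), *Sdhb* (−0.48, 0.00358) and *Sdha* (−0.35, 0.00572), of succinyl-CoA ligase and succinate dehydrogenase, were lower as well. Of 8 tested genes of the pentose phosphate pathway, which branches off at glucose-6-phosphate, 0 were higher and 4 lower (median −0.25): *Pgd* (−0.64, 0.00136), *Taldo1* (−0.70, 0.00177), *G6pdx* (−0.51, 0.00469) and *Tkt* (−0.26, 0.0136). Of 15 tested glycogen genes, 3 were higher and 3 lower (median −0.04), which is near the shares of all genes and no result about the list. The higher ones were *Gbe1*, the branching enzyme, at 40.25 and 33.3 RPM in WT and 94.65 and 118.05 RPM in KO hosts (log2 1.52, adjusted p = 0.000533), *Gys1*, muscle glycogen synthase (0.78, 0.00127), and *Ppp1r3b* (0.58, 0.015). The lower ones were the phosphorylases *Pygl* (−0.84, 0.0373) and *Pygb* (−0.38, 0.0128) and the lysosomal glucosidase *Gaa* (−0.39, 0.0201). In B16, 0 genes of these lists were called.

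Of 29 tested genes of glycolysis and its branches outside the 40, 4 were higher and 5 lower in LLC KO hosts (median −0.02), not above the 15.1% and 23.1% of all genes and thus no result about the list. The called genes are given by name. *Pdp1*, the phosphatase that reverses the action of the PDKs, was at 24.1 and 22.25 RPM in WT and 47.35 and 48.25 RPM in KO hosts (log2 1.03, standard error 0.10, adjusted p = 0.000888), so that a kinase and a phosphatase of the same complex rose together. *Bsg*, basigin, the chaperone of MCT1 and MCT4, went from 575.6 and 565.1 RPM to 948 and 957.5 RPM (log2 0.74, adjusted p = 0.0021). *Pgm2*, a phosphoglucomutase, and *Pdpr*, the regulatory subunit of the phosphatase, were also higher (0.67, 0.00118, and 0.61, 0.0448). *Pdhx*, the E3-binding protein of the complex (−0.58, 0.011), *Mpc2*, of the mitochondrial pyruvate carrier (−0.45, 0.0196), *Slc2a8* (−0.69, 0.00678), *G6pc3* (−0.37, 0.00953) and *Slc2a9* (−0.59, 0.0495) were lower.

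**Figure D3:**
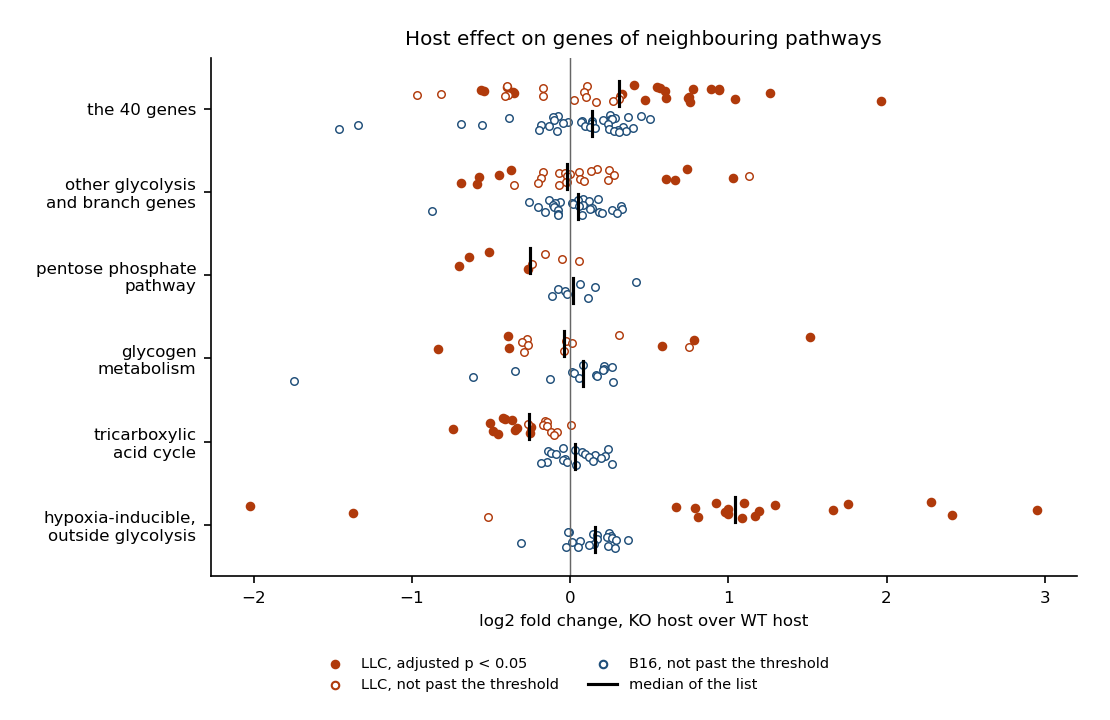
Log2 fold change of KO over WT hosts for the tested genes of 6 lists, 1 point a gene, in LLC (red) and B16 (blue), with filled points past an adjusted p of 0.05 and a black line at each list's median. In LLC the medians run from −0.26 for the tricarboxylic acid cycle to 1.04 for hypoxia-inducible genes outside glycolysis.

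Other gene groups moved in the same libraries, where 15.1% of all tested genes were called higher and 23.1% lower in LLC. Of 20 hypoxia-inducible genes outside glycolysis, 17 were higher and 2 lower in LLC KO hosts (median 1.04), and their sum was 2154.65 and 2103.65 RPM in WT and 5508.15 and 6028.85 RPM in KO hosts. In B16 the sum was 6593.6 and 7044.45 RPM in WT and 7315.4 and 8326.8 RPM in KO hosts. Of 14 proliferation genes, 0 were higher and 12 lower in LLC. Of the 8 markers of blood endothelium, 7 were lower in LLC, and they summed to 256.85 and 211.1 RPM in LLC WT and 15.8 and 74.05 RPM in LLC KO, where 1 was at 0 in KO replicate 1, and to 156.7 and 111.1 RPM in B16 WT and 50.45 and 41.6 RPM in B16 KO, with none at 0. Adipocyte markers differed most between the LLC KO pools, with 3.05 RPM in replicate 1, where 2 of 8 were at 0, and 97.35 RPM in replicate 2, and erythroid markers with 35.75 and 355.15 RPM. Of 6 T cell markers, 4 were tested and all 4 were lower in LLC, with sums of 12 and 9.3 RPM in WT and 0.95 RPM, with 3 at 0, and 2.6 RPM in KO hosts. Of 6 fibroblast markers, 2 were lower and 0 higher, and LLC WT replicate 2 stood apart with a sum of 44313.2 RPM against 20085.4 to 23393.3 RPM in the other LLC pools. Without that pool, 18 of the 37 glycolysis genes were higher and 4 lower. The 17 higher glycolysis genes were above both WT pools in each of these KO pools, which their call makes likely in advance, so that it is no separate result. The part of these groups in the host effect on glycolysis was not tested.

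LLC and B16 tumors differed at nearly every step, in favor of B16. Averaged over the hosts, 25 of the 37 genes were lower in LLC than in B16 (37.7% of all genes) and 7 were higher (39.9%), with a median log2 fold change of −0.73, against 0.03 over all genes. All 4 LLC pools were below all 4 B16 pools in 23 genes (30.2% of all genes) and above in 4 (32.2%). The counts were 26 lower (32%) and 6 higher (35.7%) in WT hosts, and 22 lower (34.8%) and 7 higher (35.4%) in KO hosts. Fibroblast markers were all called higher in LLC (6 of 6), with sums of 20085.4 to 44313.2 RPM against 1384.3 to 2439.5 RPM in B16 and none at 0, and 13 of 14 proliferation genes were called lower. Their part in the difference was not tested. The paper's legends give different days for the tumors, while its Results and the labels give the same day. If the days differed, tumor type and day cannot be told apart.

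The largest differences were of isozymes that LLC hardly expressed. *Aldoc* was at 78.15 to 120.15 RPM in the B16 pools and at 1.65 to 2.85 RPM in the LLC pools (log2 of LLC over B16 −5.25, standard error 0.12, adjusted p = 1.6e-08). *Ldhb* had 124.95 and 98.7 RPM in the B16 pools of WT hosts, 117.25 and 116.7 RPM in those of KO hosts, and 2.55 to 5.2 RPM in LLC (−4.83, 0.13, 3.55e-08). The B16 level of *Aldoc* was thus 47.1 times, and that of *Ldhb* 31.5 times, the LLC level. Next came the abundant enzymes *Tpi1* (log2 −2.23, standard error 0.07, adjusted p = 5.71e-08) and *Aldoa* (−2.17, 0.07, 6.17e-08), with 4610.45 to 5730.6 RPM and 3913.6 to 4921.6 RPM in B16 against 822.1 to 1445.75 RPM and 834.15 to 1130.45 RPM in LLC. In B16 WT and then KO pools, *Tpi1* was at 4610.45, 4636.15, 5730.6 and 5726.45 RPM, and *Aldoa* at 4125.9, 3913.6, 4921.6 and 4666.55 RPM. *Hk2* (−1.91), *Gpi1* (−1.59), *Pdk3* (−1.47), *Slc16a3* (−1.47), *Eno1* (−1.45), *Hk1* (−1.42), *Gapdh* (−1.41) and *Bpgm* (−1.40) completed the 12 largest called differences. In the same order of B16 pools, *Hk2* was at 483.5, 463.7, 551.65 and 543.65 RPM and *Hk1* at 422, 401.95, 479.35 and 510.05 RPM. *Gpi1* was at 2223.9, 2334.45, 2632.2 and 2819.35 RPM, and *Eno1* at 4261.1, 4128.25, 5545.85 and 5269.25 RPM. For all of these, the lowest B16 pool was above the highest LLC pool. *Pdk3* was at 108.1, 101.45, 117.55 and 130.5 RPM, and *Slc16a3* at 352.8, 384.8, 433.9 and 461.2 RPM. *Bpgm* was at 57.7, 61.05, 56.85 and 55.8 RPM in B16 and at 20.65, 21.05, 21.9 and 23.1 RPM in LLC. These genes did not overlap between the tumors either. The remaining 13 lower genes had log2 values from −1.34 (*Pfkl* and *Pfkp*) to −0.30 (*Pgam1*).

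*Slc2a1* and *Pdk1* did not keep this distance in KO hosts. *Slc2a1* was lower in LLC than in B16 in WT hosts (log2 −1.02, standard error 0.13, adjusted p = 0.000272) and higher in KO hosts (0.59, 0.13, 0.00426), and the average of −0.21 was not called (adjusted p = 0.0676). *Pdk1* was lower in LLC in WT hosts (−1.14, 0.09, 2.01e-05), while in KO hosts the LLC pools, at 308.7 and 319.3 RPM, lay within the B16 pools, at 304.1 and 331.75 RPM (−0.02, 95% confidence interval −0.23 to 0.19, adjusted p = 0.879).

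The 7 genes that were higher in LLC were *Hk3* (log2 1.20, standard error 0.09, adjusted p = 8.29e-06), *Pfkfb4* (1.20, 0.12, 3.5e-05), *Pdk2* (1.10, 0.23, 0.0023), *Pck2* (0.80, 0.06, 6.5e-06), *Slc16a1* (0.59, 0.11, 0.00139), *Pfkfb1* (0.49, 0.14, 0.0116) and *Pfkfb3* (0.21, 0.06, 0.016). *Hk3* was at 35 to 56.5 RPM in LLC and 16.55 to 21.4 RPM in B16. *Hk3* is known from myeloid cells, and the 9 macrophage markers summed to 2746.2 to 3512 RPM in LLC and 1006.25 to 1561.9 RPM in B16, with none at 0, and the 6 neutrophil markers to 122.75 to 196.7 RPM and 25.15 to 40.7 RPM, with none at 0. Their part in the *Hk3* difference was not tested. *Pfkfb2*, *Pgam2*, *Pdk4* and *Pdha1* were not called between the tumors on average, with log2 values of −0.15, −0.29, 0.41 and 0.08.

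Ratios of related genes within a pool hardly depend on the scaling of the library. As a pool mixes cell types, isozyme use within cells and the mix of cells cannot be told apart in them. Of 14 ratios, 8 gave p = 0.0286 for LLC against B16 in an exact two-sided permutation test, the smallest that 4 pools against 4 allow, and an adjusted p of 0.05, so that 0 went below the threshold. *Ldhb* over *Ldha* was −9.05 ± 0.699 on the log2 scale in LLC and −5.54 ± 0.137 in B16 (SD, n = 4), with a difference of −2.97 in WT and −4.05 in KO hosts. *Aldoc* over *Aldoa* differed by −3.08 (−2.58 in WT and −3.58 in KO hosts), and *Hk3* over *Hk2* by 3.11 (3.70 and 2.51). *Slc16a3* over *Slc16a1*, the ratio of MCT4 to MCT1, was −0.74 ± 0.344 in LLC and 1.32 ± 0.296 in B16 (SD, n = 4), a difference of −2.06 (−1.95 and −2.17). Within a tumor, the exact permutation test of 2 pools against 2 cannot go below p = 0.333. The LLC KO pools were below both LLC WT pools in 9 of the 14 ratios and above in 0, as for *Pdk2* over *Pdk1* (log2 difference −2.08) and *Slc2a3* over *Slc2a1* (−1.80). The second genes of these 9 ratios (*Slc2a1*, *Hk2*, *Pfkp*, *Aldoa*, *Eno1*, *Ldha* and *Pdk1*) were all called higher in LLC KO hosts, and *Pdk1* serves in several. The count of 9 is thus not separate from those calls. In B16 the KO pools were below in 6 ratios and above in 3. No share over other pairs of genes was counted.

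**Figure D4:**
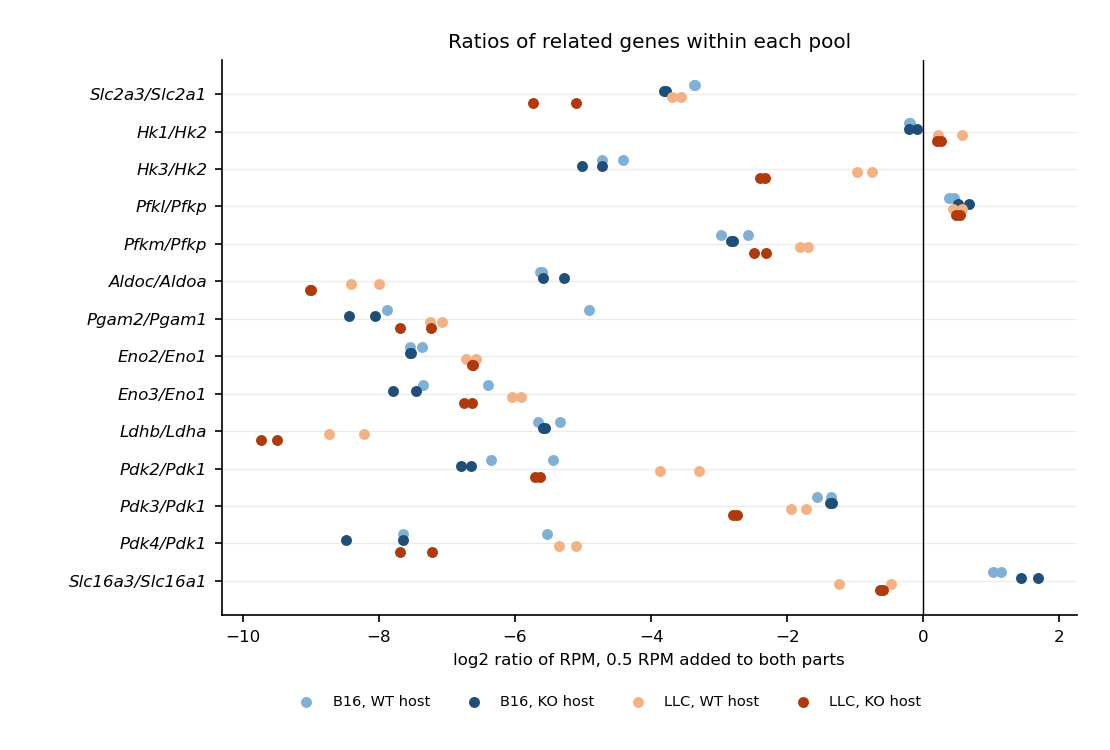
Log2 ratio of 14 pairs of related genes in each of the 8 pools, with 0.5 RPM added to both parts. LLC and B16 pools stand apart for *Ldhb*/*Ldha*, *Aldoc*/*Aldoa*, *Hk3*/*Hk2* and *Slc16a3*/*Slc16a1*, and overlap for *Pfkl*/*Pfkp*.

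A single library held skeletal muscle transcripts, and several isozymes were high in the same library. B16 WT replicate 1 held 895.05 RPM of 12 skeletal muscle markers, with 1 of them at 0, against 3.7 to 6.7 RPM in the other 7 libraries, where 2 to 5 were at 0. *Acta1* was at 275.8 RPM in that pool and at most 0.5 RPM elsewhere, *Myh4* at 113.65 RPM and 0, and *Ckm* at 61 RPM and at most 0.1 RPM. The 8 adipocyte markers were also highest in B16 WT replicate 1, with a sum of 175.6 RPM. They summed to 113.3 RPM in B16 WT replicate 2 and to 39.1 and 93.05 RPM in the B16 KO pools, with none at 0. The part of either tissue in the levels of the isozymes was not tested. Of the 40 genes, 13 had their highest B16 level in this pool, and 6 of these exceeded the median of the other 3 B16 pools by more than 1.5 times, not counting *Fbp2*, whose median there was 0. The share over all genes was not counted, so that the 13 are no result about the 40 genes. Among the 6 was *Pfkfb1*, at 3.3 and 2.9 RPM in the B16 WT pools and 2.1 and 1.8 RPM in the KO pools. It thus did not stand out in B16 WT replicate 1 alone. *Pgam2*, the muscle mutase, was at 11.85 RPM in B16 WT replicate 1 and at 0.8 to 2.3 RPM in the other libraries. *Slc2a4* was at 2.85 RPM against 0.35 to 0.8 RPM, and *Fbp2*, the muscle fructose bisphosphatase, at 1 RPM against 0 to 0.25 RPM. *Eno3* was at 49.9 RPM against 18.55 to 31.05 RPM, *Pdk4* at 5.5 RPM against 0.35 to 3.6 RPM, and *Pdk2* at 5.9 RPM against 2.25 to 3.2 RPM in the other B16 pools. *Pfkm*, at 76.45 RPM, was within the range of the B16 KO pools.

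**Figure D5:**
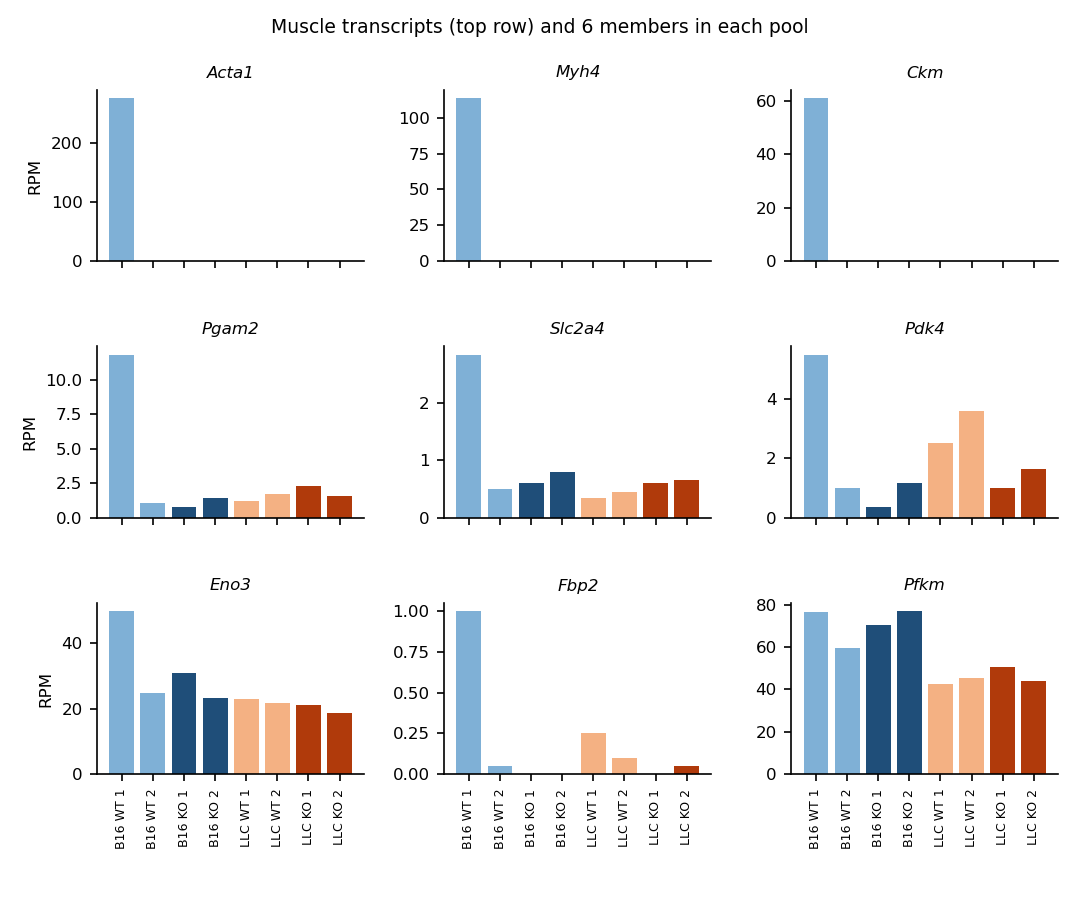
Levels in RPM in each of the 8 pools for 3 skeletal muscle transcripts (top row) and 6 of the 40 genes, each panel with its own axis from 0. B16 WT replicate 1 stands out for *Acta1* (275.8 RPM), *Pgam2* (11.85 RPM), *Slc2a4* (2.85 RPM), *Eno3* (49.9 RPM) and *Fbp2* (1 RPM), but not for *Pfkm*.

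The host effect of these isozymes in B16 depended on that pool. On the log2 scale, KO differed from WT by −1.46 for *Pgam2* and 0.04 without B16 WT replicate 1, −0.38 and 0.11 for *Eno3*, −1.34 and −0.34 for *Pdk4*, and −0.69 and −0.30 for *Pdk2*, none of them called. The genes with the largest upward differences in B16 did not have their highest level there.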

How the data were processed

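Total RNA of pooled tumors was sequenced as paired 100-base reads, and the 8 libraries formed 4 groups of 2 by their labels. The authors trimmed reads with Trimmomatic, aligned them to the GRCm38.p4 (mm10) genome using STAR and obtained counts per gene from HTSeq. The versions are not given in the sources used here. The deposited score per gene is a count scaled by the authors to about 20 M per library and rounded, and it was divided by 20 to give RPM. Since these are not raw counts, the EdgeR design of the study was not used. The step size of low values gave the depth, 17.59 to 30.84 M reads (largest error 2.52% in 12 simulated libraries). The LLC WT columns were rounded up and the others to the nearest number. Counting limits cover counting error only.

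Differences were tested with limma 3.58.1 (R 4.3.3) with a mean-variance trend on log2(RPM + 0.5), so that changes of low genes are understated. Genes that reached 1 RPM in 2 or more libraries entered 1 model of the 4 groups (14706 genes, 4 residual and 3.68 prior degrees of freedom), with Benjamini-Hochberg adjustment over all of them. In simulated data for LLC against its control with 14706 genes, 71% of 2-fold and 95% of 4-fold changes were recovered, and for B16 73% and 99%. Only 100 genes were changed by each fold there, and the rest did not differ between hosts. Smaller changes were not simulated, nor were data in which many genes differ. The shares are thus no measure of recovery for such cases. Isozyme ratios were tested by exact permutation (scipy 1.17.1). Plots were drawn with matplotlib 3.10.9, and tables read with pandas 2.3.3 and numpy 2.4.6 (Python 3.11.15). Gene lengths and overlaps came from GENCODE M21, which held 99.1% of the gene identifiers, and promoters from RefSeq. All 40 genes are accounted for. Values for each LLC pool are given for the genes called between hosts in LLC. Values for each pool are given for the 12 largest called differences between tumors. Members of families that moved in opposite directions have pool values or ranges, and other genes may have log2 values only. The members and lists were chosen with earlier results of these data known. Alternatives were another pseudocount, filter, scaling or variance moderation, each tumor fitted alone, a replicate block, and leaving out libraries.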

Additional observations from a re-analysis of the deposited data

Results flagged for a closer look

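The host effect differed between the tumors for 9 of the 37 tested genes, by the test of the difference itself in limma (adjusted p under 0.05). On the log2 scale, the change from WT to KO hosts was larger in LLC than in B16 by 1.61 for *Slc2a1*, 1.13 for *Pdk1*, 0.80 for *Pgk1*, 0.73 for *Hk2*, 0.68 for *Gpi1*, 0.58 for *Pfkp*, 0.51 for *Hk1* and 0.42 for *Pfkl*. For *Aldoc* the difference was −0.84, at 1.65 to 2.85 RPM in LLC. Calls other than those of *Slc2a1* and *Pdk1* were lost when single libraries were left out. The Y-linked genes were detected only in the LLC KO libraries, which also had a lower depth than the LLC WT libraries. The tumors may have been taken on different days. None of these can be told apart from the difference between the host effects. With 2 pools in a group, no search for a single distant pool was made.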

How the results depend on the processing

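No gene called for the host in LLC, for the average or for the difference changed direction under any alternative run. The calls between the tumors were followed as counts only. Several genes that were not called did change direction. Among them were *Pgam2* and *Eno3* in B16 without B16 WT replicate 1, and *Pfkm*, *Slc16a1* and *Slc2a3* in LLC. Of the 22 LLC calls, 6 held under every alternative. With B16 WT replicate 1 and LLC KO replicate 1 left out together, the calls were 6 higher and 0 lower in LLC, 0 and 0 for the average of the tumors, and 0 and 0 for the difference between them. Fitting each tumor alone left 2 lower genes in LLC. For the average, the 5 lower genes became 3 with a pseudocount of 0.05 RPM, and 0 without a filter, with TMM or with median-of-ratios scaling. For the difference, the 1 lower gene became 0 under each of these 4 settings. Leaving out 1 library at a time gave 13 to 18 higher and 1 to 8 lower genes in LLC, 13 to 18 and 0 to 4 for the average, 2 to 11 and 0 to 2 for the difference, and 0 in B16. Between the tumors it gave 6 to 8 higher and 24 to 26 lower genes on average, 4 to 6 and 25 to 27 in WT hosts, and 5 to 7 and 22 to 23 in KO hosts. The ratio test then keeps 4 pools against 3, whose smallest p is 0.0571. Replicate numbers did not pair the pools (correlation of deviations 0.0582 in B16 and −0.0301 in LLC). A replicate block gave 18 higher and 5 lower genes in LLC and 18 and 4 for the average. With TMM scaling, 60.4% of all called genes were higher for the average (35.3% otherwise) and 61.9% for the difference (53.6% otherwise). Where a count moved under scaling or pseudocount, the cause was not tested. Precision was lowest for genes near 1 RPM, as *Pgam2* (standard error 0.81 on the log2 scale) and *Pdk4* (0.61).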

Other observations

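*Gapdh*, a gene of the pathway, is also widely used as a reference in RT-qPCR, and it was the reference in the study's own RT-qPCR. Its host effect was therefore set beside that of 8 other common reference genes, chosen after seeing the data. In LLC, *Gapdh* was higher in KO hosts by 0.89 on the log2 scale, while *Tbp* (0.18), *Rplp0* (0.04), *Hprt* (−0.06), *Ywhaz* (−0.08) and *Ppia* (−0.12) were not called by limma. *Gusb* was lower (−0.65, adjusted p = 0.0028), as was *Actb* (−0.34, adjusted p = 0.0497), and *B2m* missed the threshold (−0.39, adjusted p = 0.0565). In B16, *Gapdh* differed by log2 0.51 (adjusted p = 0.393) and the other 8 genes ranged from −0.23 to 0.10. A level given relative to *Gapdh* in these pools would carry these differences in the opposite direction, of which the B16 difference was not called. The RT-qPCR shown in the paper was of B16 tumors collected on a later day, which these pools do not cover.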
